A study of Homo sapiens with 12 samples.

Results

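The oxygen sensing hydroxylases and VHL were described across RCC4 cells transfected with siRNA against the HIF-α subunits. The genes were chosen by name, as the HIF prolyl hydroxylases EGLN1 (PHD2), EGLN2 (PHD1) and EGLN3 (PHD3), the HIF asparaginyl hydroxylase HIF1AN (FIH) and the ubiquitin ligase subunit VHL. Earlier results of these data were known when the genes were chosen. All 5 were among the 23106 gene symbols counted in each library, and all 5 passed the expression filter of both fits. RCC4 is a long-used cell line from a human clear cell kidney cancer that lacks functional VHL protein. The study's methods for the siRNA experiment describe no hypoxic incubation of these cells. Cells were given siRNA against HIF1A, siRNA against EPAS1 (the gene for HIF-2α, here called HIF2A siRNA), both together, or a non-targeting control, and RNA was collected after 48 h. Each of the 4 conditions had 3 replicates, which made 12 libraries. The final siRNA concentration was 2 nM in every dish: 2 nM control siRNA, 1 nM of a single HIF siRNA with 1 nM control siRNA, or 1 nM of each HIF siRNA. The double knockdown therefore contained no control siRNA, and its effect cannot be told apart from the absence of that siRNA in comparisons with the other groups. The study compared the single knockdowns with control siRNA to separate the targets of HIF-1 from those of HIF-2, and it left the double knockdown out of its own analysis. All results came from 1 cell line, and polyA RNA was measured, not protein or enzyme activity.

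When oxygen is available, the prolyl hydroxylases modify the HIF-α subunits on proline. The VHL protein, bound to elongins, CUL2 and RBX1, recognises hydroxylated HIF-α and marks it for degradation, while HIF1AN hydroxylates an asparagine of HIF-α and so blocks its binding of the coactivators EP300 and CREBBP. EGLN1 and EGLN3 are themselves known to be induced by hypoxia through HIF, which makes them a feedback arm of the pathway. In clear cell renal carcinoma VHL is commonly lost, so that HIF-1α and HIF-2α persist in normal oxygen and the transcription they drive can be read by removing either subunit.

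The promoters of the prolyl hydroxylases are shown because 2 of these genes were called in comparisons of the HIF siRNAs and 1 was not. HIF binds a core of ACGTG or GCGTG, and both cores were searched on both strands from 250 bases before to 50 bases after the RefSeq start site (GRCh38.p14). The files were counted on hg19, so these coordinates belong to the promoter sequences and not to the counts. Capitals mark ACGTG or its reverse complement.
EGLN1, chr1:231422238-231422537, minus strand: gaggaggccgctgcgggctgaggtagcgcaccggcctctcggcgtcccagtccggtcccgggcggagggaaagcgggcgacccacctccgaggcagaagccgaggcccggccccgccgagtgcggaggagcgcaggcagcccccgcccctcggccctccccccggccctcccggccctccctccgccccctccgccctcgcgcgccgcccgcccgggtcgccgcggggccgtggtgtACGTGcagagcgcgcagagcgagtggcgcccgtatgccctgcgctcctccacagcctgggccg
EGLN3, chr14:33951025-33951324, minus strand: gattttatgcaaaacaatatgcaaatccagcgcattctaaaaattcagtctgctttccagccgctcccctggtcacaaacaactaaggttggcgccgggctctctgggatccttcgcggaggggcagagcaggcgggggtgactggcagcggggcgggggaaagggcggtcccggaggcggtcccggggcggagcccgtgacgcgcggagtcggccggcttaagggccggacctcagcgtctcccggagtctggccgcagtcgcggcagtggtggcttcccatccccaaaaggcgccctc
EGLN2, chr19:40798941-40799240, plus strand: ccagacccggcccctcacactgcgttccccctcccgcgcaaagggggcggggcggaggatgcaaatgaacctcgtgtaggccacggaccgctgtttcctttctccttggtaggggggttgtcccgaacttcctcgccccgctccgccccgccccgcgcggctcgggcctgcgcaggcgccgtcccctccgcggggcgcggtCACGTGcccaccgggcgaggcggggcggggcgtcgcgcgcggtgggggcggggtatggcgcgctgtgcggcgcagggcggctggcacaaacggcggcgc
The EGLN1 promoter held 1 ACGTG, at bases -13 to -9 from the start site. The EGLN2 promoter shown held overlapping ACGTG matches on both strands, in a palindrome that spans bases -49 to -44, and a second EGLN2 start site (chr19:40799272-40799571) held none. Neither the EGLN3 promoter nor that of HIF1AN (chr10:100535693-100535992) held a match in this window, and GCGTG was in none of the promoters searched. Bases outside these windows were not searched, so the matches do not show which genes have or lack a HIF site. For reference, ACGTG was in 21.4% and GCGTG in 36.5% of the 35116 RefSeq promoters of the same length, and 48.4% held either. An entry was found for 4 of the 5 genes, VHL being the one without.

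The siRNAs lowered their targets in every library. HIF1A stood at 120, 58.2 and 112 normalised read counts (CPM, scaled to library size) in replicates 1 to 3 of control siRNA and at 14.99, 17.8 and 22.2 with HIF1A siRNA. It stood at 111, 116 and 136 CPM when HIF2A siRNA was given alone and at 24.2, 32.2 and 29.7 in the double knockdown. EPAS1 stood at 163, 138 and 171 CPM with control siRNA, 101, 107 and 134 after HIF1A siRNA, 9.16, 11.9 and 9.33 after HIF2A siRNA and 8.54, 11.3 and 7.01 in the double knockdown. HIF1A was thus higher in all 3 libraries of the double knockdown than in any with HIF1A siRNA alone, by 0.66 ± 0.212 (SE) on the log2 scale, which missed the threshold (adjusted p = 0.182, edgeR). EPAS1 was lower with HIF1A siRNA than with control siRNA in all 3 pairs without reaching the threshold (log2 fold change -0.47 ± 0.148, adjusted p = 0.28, edgeR). Total counts lay between 13263168 and 20451433 per library. All 8 markers listed for a renal epithelial cell line were detected (PAX8, PAX2, KRT8, KRT18, KRT19, CDH2, VIM and CA12). PAX8 lay between 197 and 315 CPM and CA12 between 10.2 and 89.5. Of the 8 markers of other cell types, PTPRC, CD3E and PECAM1, which mark leukocytes and endothelium, were at 0 in all 12 libraries. The endothelial markers VWF and CDH5 reached at most 0.390 and 0.432 CPM. The macrophage marker CD68 lay between 32.6 and 65.1 CPM, and the pericyte markers RGS5 and ACTA2 between 1.73 and 10.4 and between 7.26 and 14.7 CPM. Since PTPRC and CD3E were at 0, the summed immune markers were CD68 alone. That sum ranged from 44.1 to 57.8 CPM in control libraries and from 51.1 to 65.1 in the double knockdown. Summed renal epithelial markers ranged from 5464 to 6936 CPM with control siRNA and from 5060 to 6284 with HIF1A siRNA. They ranged from 4362 to 5666 CPM with HIF2A siRNA and from 4470 to 5635 in the double knockdown. VIM alone lay between 2927 and 5433 CPM over all libraries, so these renal epithelial sums were mostly VIM. The part of these sums in the results was not tested.

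EGLN3, which showed the largest change of the 5 genes, fell when HIF1A was silenced and fell furthest when both subunits were, while its change with HIF2A siRNA alone did not pass the test. In replicates 1, 2 and 3, its level was 91.3, 102 and 87.5 CPM with control siRNA and 55.9, 64.6 and 47.2 CPM with HIF1A siRNA. It was 71.6, 94.3 and 80.0 CPM with HIF2A siRNA and 24.1, 25.1 and 16.0 CPM in the double knockdown. The control and HIF1A siRNA libraries did not overlap, the HIF2A siRNA libraries lay partly within the control range, and the double knockdown lay below every other library. There it was counted with 328 to 477 reads per library. How many of all genes separate between groups in this way was not counted. Overlap of libraries is therefore given here and below as description only.

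With HIF1A siRNA, EGLN3 was at 59.5% of control and below its control in all 3 pairs (log2 fold change -0.75 ± 0.123 SE, 95% interval -1.02 to -0.483, adjusted p = 0.00699 by edgeR's quasi-likelihood test, adjusted after Benjamini and Hochberg). It was the only one of the 5 genes called in this comparison, in which 1.14% of 12830 genes were called lower and 0.0312% higher. The call rested on the pairing of replicates and on single libraries: the adjusted p was 0.236 without the replicate block, 0.348 without replicate 3 of all groups, 0.0704 without control siRNA replicate 3, and 0.0593 and 0.105 without HIF1A siRNA replicates 2 and 3. With HIF2A siRNA, EGLN3 was lower in all 3 pairs, at 78.5, 92.2 and 91.4% of control, but its log2 fold change of -0.19 ± 0.122 (95% interval -0.453 to 0.0773) did not pass the test (adjusted p = 0.942, edgeR). No gene of the 5 was called with HIF2A siRNA by edgeR or by DESeq2, and 0 had an unadjusted p under 0.05, where 0.0857% of all genes were called lower and 0% higher. Over all 12830 genes, 690 had an unadjusted p under 0.05 in that comparison.

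**Figure D1:**
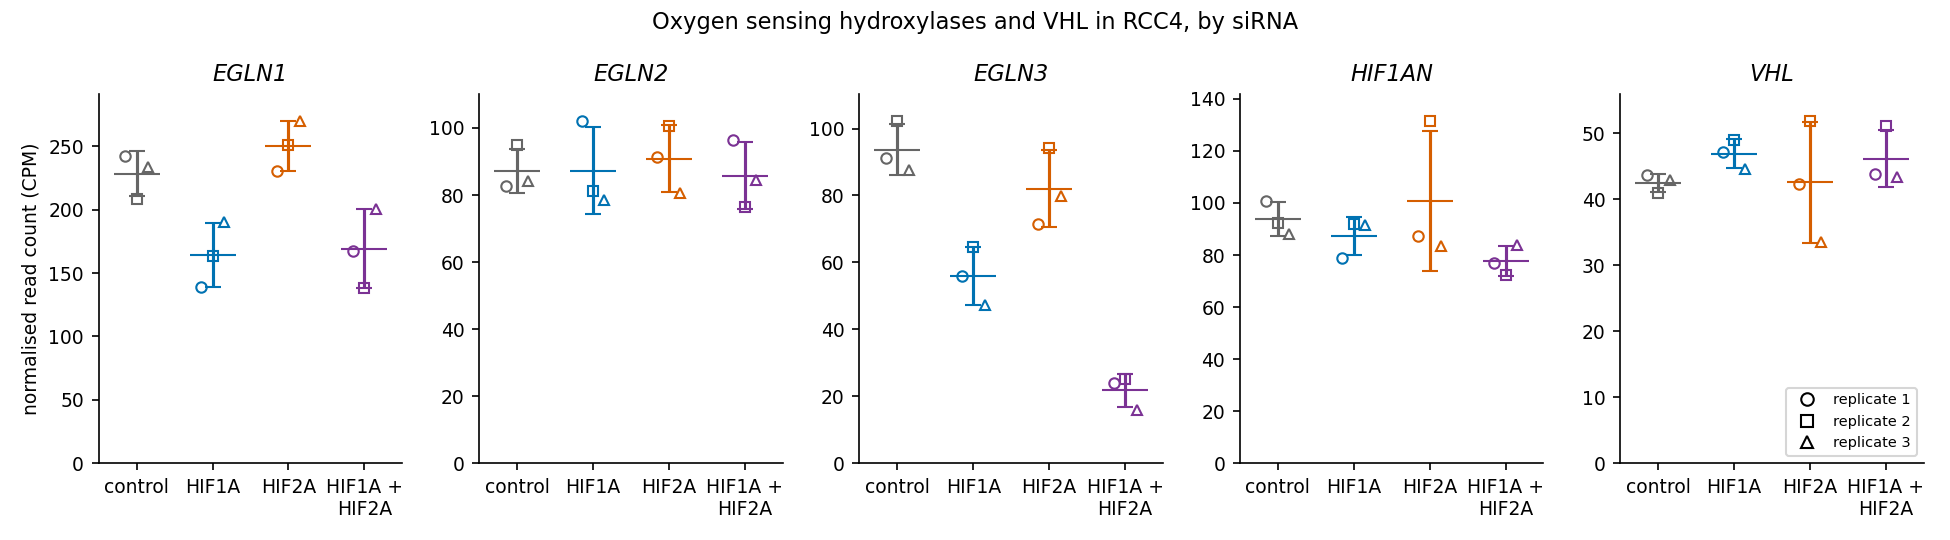
Normalised read counts (CPM, linear axes from 0) of EGLN1, EGLN2, EGLN3, HIF1AN and VHL in the 12 RCC4 libraries, by siRNA group; symbols are replicates, and horizontal marks with bars are means ± SD. EGLN3 in the double knockdown (16.0 to 25.1 CPM) lies below all other libraries, and EGLN1 is lower in both groups that received HIF1A siRNA.

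In the double knockdown EGLN3 fell to 23.0% of control (log2 fold change -2.12 ± 0.134, 95% interval -2.41 to -1.84, adjusted p = 1.2e-07, edgeR) and ranked 14 of 13000 genes by p. It was also lower than with HIF1A siRNA alone (-1.37 ± 0.133, adjusted p = 5.2e-05, edgeR), at 43.1, 38.9 and 33.8% of that level in the 3 pairs. Against HIF2A siRNA alone it stood at 33.7, 26.6 and 20.0% (-1.93 ± 0.134, adjusted p = 4.3e-07, edgeR). These 3 comparisons share the double knockdown libraries. Each remained past the threshold in all 21 alternative settings.

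In the double knockdown EGLN3 stood below the level that the single effects would give together. Against control, the single siRNAs multiplied together would place EGLN3 at 48.0, 58.2 and 49.3% in the 3 replicates, whereas the double knockdown stood at 26.4, 24.6 and 18.2%. The double knockdown was below the product in all 3. The interaction of both siRNAs, which tests this difference on the log2 scale, was -1.18 ± 0.182 for EGLN3 (95% interval -1.56 to -0.785), equal to 44.3% of the product. Its adjusted p was 0.0649 in edgeR, past the threshold for no gene, although EGLN3 ranked 2 of 13000 by p. Among all genes, 0 were called for the interaction by edgeR (0%) and 11 by DESeq2, and 318 had an unadjusted p under 0.05. DESeq2 called EGLN3 (adjusted p = 2.5e-05), as did edgeR without an expression filter (0.00558) and without HIF2A siRNA replicate 1 (0.0245), whereas without the replicate block its adjusted p was 1.0.

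**Figure D2:**
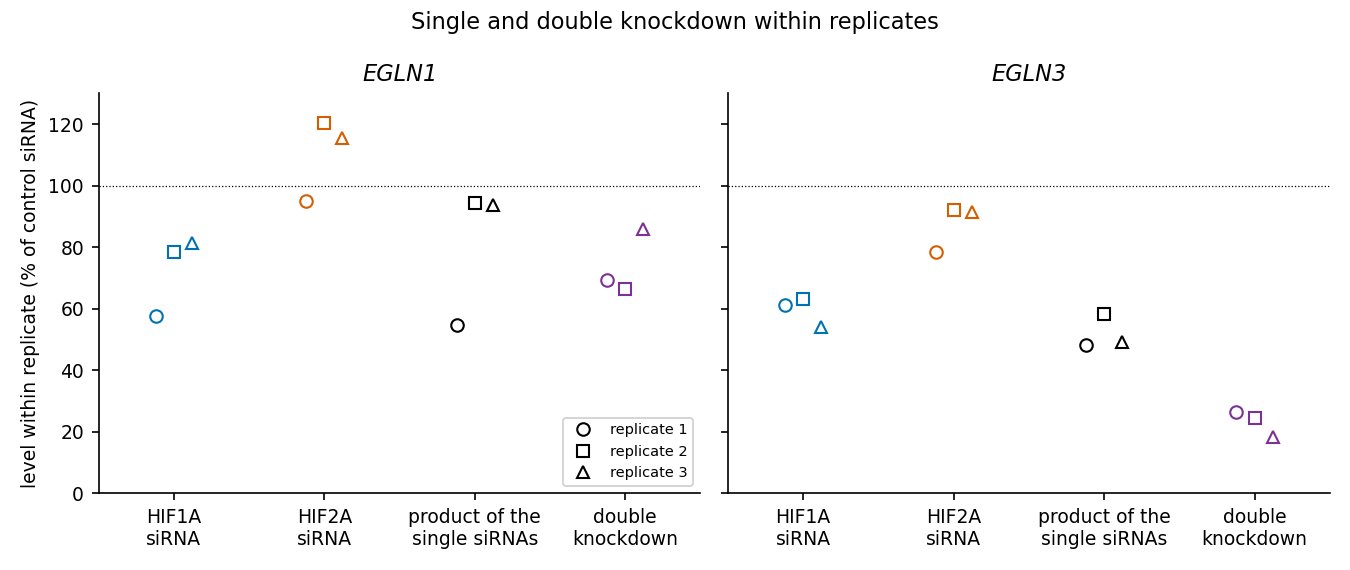
Levels of EGLN1 and EGLN3 within each replicate as a percentage of control siRNA (linear axis from 0, dotted line at 100%), for the single siRNAs, their product and the double knockdown; symbols are replicates. For EGLN3 the double knockdown (18.2 to 26.4%) lies below the product (48.0 to 58.2%) in every replicate, while for EGLN1 it lies above the product in replicate 1 and below it in replicates 2 and 3.

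EGLN1, the main HIF prolyl hydroxylase of cells in normal oxygen, had its lowest levels in the 2 groups given HIF1A siRNA, and was called lower in 3 of the 4 comparisons of these groups with those without it. Its level was 243, 209 and 234 CPM with control siRNA and 139, 164 and 190 CPM with HIF1A siRNA in replicates 1, 2 and 3. With HIF2A siRNA it was 230, 251 and 270 CPM, and in the double knockdown 168, 139 and 201 CPM. Neither group with HIF1A siRNA overlapped either group without it, and these 2 groups overlapped each other. The share of all genes with such a separation was not counted.

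Against control siRNA, EGLN1 was at 57.5, 78.5 and 81.3% in the HIF1A siRNA pairs (log2 fold change -0.48 ± 0.125, 95% interval -0.755 to -0.211), with an adjusted p of 0.128 in edgeR and 0.0283 in DESeq2. It also passed in edgeR without HIF2A siRNA replicate 2, at 0.0498. Against HIF2A siRNA, EGLN1 was lower by 0.62 on the log2 scale (SE 0.125, adjusted p = 0.0249, edgeR) and EGLN3 by 0.56 (SE 0.123, adjusted p = 0.0415, edgeR). In this comparison of the single siRNAs 2 of the 5 genes were thus called lower and 0 higher, where 1.23% of all genes were called lower and 0.273% higher. Both calls were lost without the replicate block (adjusted p = 0.308 for EGLN1 and 0.665 for EGLN3), and they were lost in 8 and 9 of 19 alternatives, respectively, with adjusted p up to 0.721 for EGLN3 without replicate 3 of all groups. Each single library of HIF1A siRNA left out, as well as control siRNA replicate 3 and HIF2A siRNA replicate 3, ended both calls, and HIF2A siRNA replicate 2 ended that of EGLN3.

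The double knockdown placed EGLN1 at 69.2, 66.5 and 85.9% of control (log2 fold change -0.45 ± 0.119, 95% interval -0.700 to -0.190, adjusted p = 0.0279, edgeR). With EGLN3, 2 of the 5 genes were called lower in this comparison, where 6.42% of 13000 genes were lower and 3.86% higher. Compared with HIF2A siRNA alone EGLN1 was lower by 0.58 (SE 0.119, adjusted p = 0.0125, edgeR), so that again 2 of 5 genes were called lower, against 3.22% of all genes lower and 0.785% higher. These calls were lost without the replicate block (adjusted p = 0.34 and 0.286). Leaving out control siRNA replicate 1 or 2, or double knockdown replicate 1 or 2, ended the call against control, with adjusted p from 0.0553 to 0.162, and so did leaving out replicate 1 or 3 of all groups (0.162 and 0.150). Leaving out double knockdown replicate 1 or 2 ended that against HIF2A siRNA (0.0576 and 0.101), as did leaving out replicate 2 or 3 of all groups (0.0576 and 0.129).

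Adding HIF2A siRNA to HIF1A siRNA did not move EGLN1 beyond the spread. The double knockdown stood at 120, 84.7 and 106% of HIF1A siRNA alone, with a log2 difference of 0.04 (95% interval -0.218 to 0.292, adjusted p = 0.943, edgeR). EGLN3 was the 1 gene of the 5 called here, against 0.969% of all genes called lower and 0.431% higher. The interaction for EGLN1 was -0.09 (95% interval -0.453 to 0.267, adjusted p = 0.999, edgeR). HIF2A siRNA against control gave 0.14 (95% interval -0.134 to 0.407, adjusted p = 0.955, edgeR). The comparisons with control siRNA share the control libraries.

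EGLN2, the prolyl hydroxylase not known as a hypoxia-induced gene, did not separate the groups. It measured 82.7, 94.8 and 84.2 CPM with control siRNA, 102, 81.1 and 78.6 after HIF1A siRNA, 91.5, 100.4 and 80.5 after HIF2A siRNA and 96.4, 76.5 and 84.4 in the double knockdown. All groups overlapped. The log2 fold changes against control were -0.00096 with HIF1A siRNA (95% interval -0.286 to 0.284), 0.06 with HIF2A siRNA (-0.222 to 0.348) and -0.03 in the double knockdown (-0.294 to 0.239). None of these passed the test, with adjusted p of at least 0.917 in edgeR.

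HIF1AN, the asparaginyl hydroxylase, measured less in every double knockdown library than in any control library, a difference that did not pass the test. It measured 100.9, 92.4 and 88.2 CPM with control siRNA, 78.8, 91.9 and 91.4 after HIF1A siRNA, 87.1, 131.6 and 83.4 after HIF2A siRNA and 77.0, 72.3 and 83.8 in the double knockdown. Replicate 2 with HIF2A siRNA stood above all other libraries. The double knockdown differed from control by -0.27 on the log2 scale (SE 0.148, 95% interval -0.585 to 0.0478, adjusted p = 0.279, edgeR) and from HIF2A siRNA by -0.35 (SE 0.149, adjusted p = 0.228, edgeR). The single siRNAs gave -0.11 for HIF1A (95% interval -0.444 to 0.232) and 0.09 for HIF2A (-0.252 to 0.425).

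VHL transcripts were counted in every library of this VHL-deficient line, at 631 to 917 reads. The level was 43.6, 41.0 and 42.8 CPM with control siRNA, 47.1, 48.9 and 44.6 after HIF1A siRNA, 42.3, 51.8 and 33.4 after HIF2A siRNA and 43.9, 51.1 and 43.3 in the double knockdown. The HIF1A siRNA libraries all lay above the control libraries, and the HIF2A siRNA libraries spread on both sides of them. The difference with HIF1A siRNA was small and did not pass the test (log2 fold change 0.14, 95% interval -0.175 to 0.457, adjusted p = 0.934, edgeR). Against control, HIF2A siRNA gave -0.01 (-0.323 to 0.311) and the double knockdown 0.11 (-0.162 to 0.384).

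**Figure D3:**
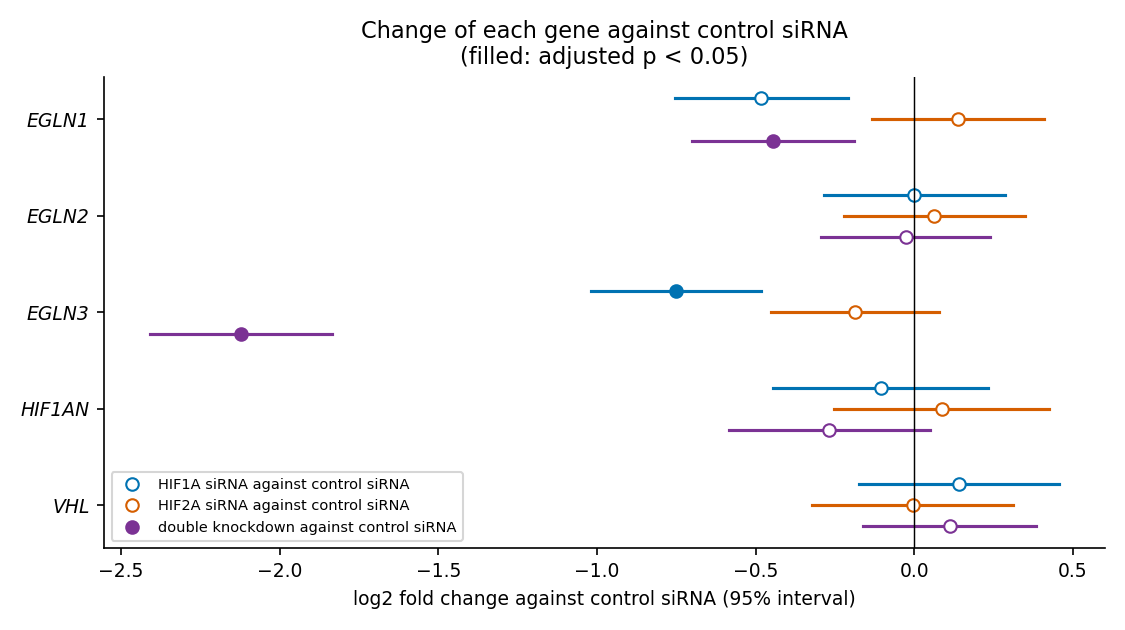
Log2 fold change of each gene against control siRNA with its 95% interval, for HIF1A siRNA, HIF2A siRNA and the double knockdown; filled points have an adjusted p under 0.05 in edgeR, and the vertical line marks 0. EGLN3 moves furthest (-2.12 in the double knockdown), EGLN1 is below 0 with HIF1A siRNA and in the double knockdown, and the intervals of EGLN2, HIF1AN and VHL all include 0.

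To compare levels between genes, CPM values were divided by the length of the transcript selected as representative for each gene in a later annotation (GENCODE v44, GRCh38), since the models used for counting are not analysed here. With control siRNA, EGLN1 was highest at 52.7 ± 4.07 CPM per kb (SD, n = 3), followed by EGLN2 at 41.5 ± 3.15, EGLN3 at 34.6 ± 2.84, VHL at 9.62 ± 0.301 and HIF1AN at 7.26 ± 0.502. Neighbours in this order did not overlap between libraries with control siRNA. The order depends on the transcript chosen: with the longest transcript EGLN2 would stand at 22.4 CPM per kb, below EGLN3 at 32.9, and the low value of HIF1AN rests on a transcript of 12927 bases. In the double knockdown EGLN2 (40.8 ± 4.78) and EGLN1 (39.0 ± 7.19) overlapped, and the mean of EGLN3, at 8.03 ± 1.85, lay between those of HIF1AN (6.01 ± 0.445) and VHL (10.4 ± 0.978). EGLN3 and HIF1AN overlapped there too, with the lowest EGLN3 library at 5.90 and the highest HIF1AN library at 6.48 CPM per kb.

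The make-up of the prolyl hydroxylase transcripts also differed between the groups, for which no test was made. On this per-length scale EGLN3 made up 26.9 ± 1.75% of the 3 EGLN genes in control libraries (SD, n = 3), 20.6 ± 3.08% after HIF1A siRNA, 23.0 ± 1.68% after HIF2A siRNA and 9.29 ± 2.79% in the double knockdown. The share of EGLN2 was 32.2 ± 2.02% with control siRNA and 46.5 ± 2.83% in the double knockdown, while its own level moved by less than the spread between replicates. EGLN1 took 40.9 ± 3.66% with control siRNA and 44.2 ± 5.12% in the double knockdown. The double knockdown and control libraries did not overlap for EGLN2 and EGLN3 and did overlap for EGLN1. The shares depend on the transcript chosen: with the longest transcript of each gene, an alternative added after seeing the data, EGLN2 took 20.8 ± 1.55% with control siRNA and 32.1 ± 2.51% in the double knockdown, EGLN3 30.5 ± 2.33% and 11.3 ± 3.51%, and EGLN1 48.8 ± 3.82% and 56.6 ± 5.55%.

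**Figure D4:**
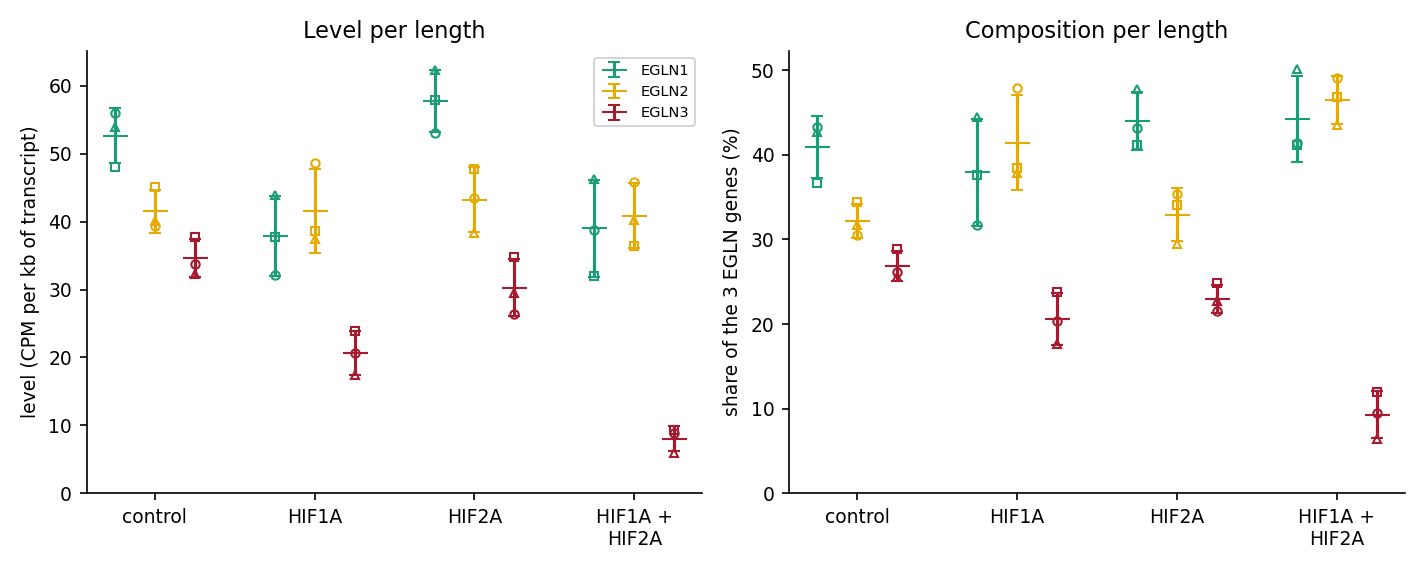
Level per length (left, CPM per kb of the representative transcript) and share of the 3-gene sum (right, %) of EGLN1, EGLN2 and EGLN3 by siRNA group; symbols are replicates, and marks with bars are means ± SD. The EGLN3 share is 26.9% with control siRNA and 9.29% in the double knockdown, where EGLN1 holds 44.2% and EGLN2 46.5% with these transcripts; with the longest transcripts EGLN2 holds 32.1%.

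The rest of the pathway was described through 29 genes around these 5, of which 27 were tested and HIF3A and VHLL fell below the expression filter. In the VHL ubiquitin ligase (TCEB1 and TCEB2 for elongins C and B, CUL2, RBX1, and NEDD8 and UBE2M of the neddylation step), 0 of 6 genes were called in any comparison by edgeR or DESeq2. In the double knockdown against control 1 of the 6 had an unadjusted p under 0.05, as did 3291 of 13000 genes in all. There 6.42% of all genes were called lower and 3.86% higher, so the counts do not set these 6 genes apart. Their median log2 fold change in the double knockdown was 0.08, against 0.00477 over all genes tested. Among the HIF subunits, all 4 tested were called lower in the double knockdown than in control, where 6.42% of all genes were called lower. HIF1A and EPAS1 were the siRNA targets, so their fall was set by the treatment and the count of 4 cannot be weighed against that share. The others were the common partner ARNT (HIF-1β, -0.46 ± 0.117, adjusted p = 0.0215, edgeR) and its paralog ARNT2 (-0.46 ± 0.13, adjusted p = 0.0355, edgeR). Without the replicate block 2 of the 4 were called. ARNT measured 36.5, 28.3 and 42.2 CPM with control siRNA and 24.4, 21.6 and 31.8 in the double knockdown, so that the groups overlapped but each pair fell. Against control, either single siRNA called only its own target among the subunits.

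WSB1, a substrate receptor of a ubiquitin ligase known to act on VHL and itself a known hypoxia-induced gene, was lower with HIF1A siRNA. It measured 115.5, 120.8 and 75.8 CPM with control siRNA, 71.2, 70.7 and 52.0 after HIF1A siRNA, 118.6, 135.9 and 93.6 after HIF2A siRNA and 75.1, 97.0 and 53.8 in the double knockdown. Each library with HIF1A siRNA, alone or in the double knockdown, was below the control of the same replicate. The log2 fold change was -0.67 ± 0.118 with HIF1A siRNA (adjusted p = 0.0116, edgeR), 0.18 ± 0.117 with HIF2A siRNA (adjusted p = 0.94, edgeR) and -0.47 ± 0.109 in the double knockdown (adjusted p = 0.0122, edgeR). It was the only 1 of 13 tested partners and regulators called with HIF1A siRNA (1.14% of all genes were called lower and 0.0312% higher), and without the replicate block none of the 13 was called in any comparison with control. In the double knockdown UBE2S, a ubiquitin-conjugating enzyme, was higher (0.42 ± 0.124, adjusted p = 0.0418, edgeR), as was CITED2, which competes with HIF for its coactivators (0.46 ± 0.129, adjusted p = 0.036, edgeR). In the double knockdown against control 7 of the 27 genes were called, the siRNA targets HIF1A and EPAS1 included, 5 lower and 2 higher, where 6.42% of all genes were called lower and 3.86% higher. Without the replicate block 2 of the 27 were called, both of them HIF subunits, and 195 genes in all. UBE2S and CITED2 were then not called. The interaction called 0 of the 27 genes by edgeR or DESeq2, and 0 had an unadjusted p under 0.05. Over all 13000 genes it called 0 by edgeR and 11 by DESeq2, and 318 had an unadjusted p under 0.05.

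Which genes varied most like each of the 5 was described by the Pearson correlation of log2 CPM over the 12 libraries, after the mean of each replicate number was subtracted, among 13000 genes. The points share libraries and their depth, and no test was made. Since these genes were picked for their likeness in the same libraries, their changes add no independent support. Nearest to EGLN3 were SGCB (r = 0.983), SLC1A1 (0.980), CA12 (0.972), FAM83D (0.971) and NDRG1 (0.971). SLC1A1, a glutamate transporter, CA12, a carbonic anhydrase of the cell surface, and NDRG1, a known hypoxia-induced gene, had log2 fold changes of -1.42, -2.08 and -2.63 in the double knockdown. With HIF2A siRNA alone these were -0.23, -0.42 and -0.51, none of which passed the test, and with HIF1A siRNA -0.75, -0.49 and -0.84, of which that of SLC1A1 passed (adjusted p = 0.00448, edgeR). The changes of SGCB and FAM83D were smaller, at -0.59 and -0.39 in the double knockdown, -0.18 and -0.13 with HIF1A siRNA and -0.05 and -0.09 with HIF2A siRNA.

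Nearest to EGLN1 were KIAA1715 (r = 0.984), SLC35E1 (0.973), MPI (0.972), RCOR1 (0.971) and GBE1 (0.969). Among them GBE1, the glycogen branching enzyme, was below control by 1.11 on the log2 scale with HIF1A siRNA (adjusted p = 0.00074, edgeR) and MPI, mannose phosphate isomerase, by 1.05 (adjusted p = 0.00558, edgeR). The correlations nearest to EGLN2 (CDR2L, 0.926) and VHL (C3, 0.909) were lower, and the 5 genes most like EGLN2 had no call against control in any of the 3 comparisons. For HIF1AN the nearest was SUPT6H (0.981). No gene among the 5 most like HIF1AN or the 5 most like VHL was called against control either, although ASAP3, near VHL, was tested only in the double knockdown. Among the 5 genes themselves r was highest between EGLN1 and HIF1AN (0.739), followed by EGLN1 and EGLN3 (0.681) and EGLN3 and HIF1AN (0.583).

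Several gene records overlap the 5 genes in the later annotation. NDUFB8 lies on the opposite strand of HIF1AN, and SPTSSA overlaps a long EGLN3 transcript on the same strand. Both were counted separately in the files, while the readthrough RAB4B-EGLN2 and the antisense EGLN3-AS1 were not. Whether the counting used strand is not given in the sources used here, so reads from overlapping stretches cannot be assigned with certainty, in particular for HIF1AN.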

How the data were processed

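PolyA RNA was measured in 12 RCC4 libraries, grouped by sample labels. The authors trimmed adaptors with Trim Galore 0.3.3, aligned reads to hg19 with HISAT2 2.05, filtered with Picard 2.0.1, counted fragments per gene with HTSeq 0.5.4p3 and deposited the counts of each symbol unnormalised. Total counts (13263168 to 20451433) limit precision through counting error, and replicates differed by more than this.

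From these counts, edgeR 4.0.16 (R 4.3.3) was run with TMM normalization (factors 0.980 to 1.02), filterByExpr (minimum count 10, total 15), the replicate number as a block, and the quasi-likelihood test with Benjamini-Hochberg adjustment over all genes, called at an adjusted p under 0.05. Comparisons among control, HIF1A and HIF2A siRNA used 9 libraries together (12830 genes). Those with the double knockdown and the interaction used all 12 (13000 genes). Intervals are 95% intervals from the fit. CPM used total counts scaled by TMM factors of all 12 libraries, and likeness used log2(CPM + 0.5). Scripts were tested on simulated data.

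Replicates were paired by number because the study's methods pair conditions by biological replicate. Deviations from group means correlated between 0.0991 and 0.813 for libraries with the same number in different groups (18 pairs) and between -0.724 and 0.527 for different numbers (36 pairs).

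Named genes were the 5 members, the siRNA targets, 29 pathway genes (values for those called), overlapping records and the 5 genes most correlated with each member. Members and lists were chosen with earlier results of these data known. Alternatives were DESeq2 1.42.0, DESeq2 size factors, no filter, a minimum of 10 counts in every library, a fit without the block, other sets of libraries, and each replicate number or library left out. Sequences were taken from RefSeq (GRCh38.p14), and transcript lengths from GENCODE v44.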

Additional observations from a re-analysis of the deposited data

How the results depend on the processing

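EGLN3 in the double knockdown kept its direction and its call in all 21 alternatives against control siRNA (log2 fold change -2.26 to -1.97), HIF1A siRNA (-1.51 to -1.23) and HIF2A siRNA (-2.14 to -1.74). EGLN1 kept its direction against control with HIF1A siRNA and in the double knockdown, and EGLN2, HIF1AN and VHL passed the threshold in 0 alternatives against control.

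Without the replicate block, the log2 fold change of EGLN3 with HIF1A siRNA was -0.74 and no longer passed, nor did those of EGLN1 (-0.61) and EGLN3 (-0.56) between the single siRNAs or of EGLN1 in the double knockdown against control (-0.43) and HIF2A siRNA (-0.57). EGLN2 with HIF1A siRNA then turned to 0.00174 and VHL with HIF2A siRNA to 0.0134, both near 0. The number of genes called without the block was 41 for HIF1A siRNA, 1 for HIF2A siRNA, 52 between them, and 195, 8 and 90 for the double knockdown against control, HIF1A siRNA and HIF2A siRNA. Why the pairing changes these was not tested further. The calls of EGLN1 need it, as do those of EGLN3 with HIF1A siRNA against control and against HIF2A siRNA.

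DESeq2 called EGLN1 with HIF1A siRNA (-0.48) and EGLN3 in the interaction (-1.18), and turned EGLN2 with HIF1A siRNA to 0.0043 (0.00421 with its size factors in edgeR, 0.00531 without a filter). It called 236, 58, 329, 403, 818 and 11 genes for HIF1A siRNA, HIF2A siRNA, the difference between them, the double knockdown against HIF1A siRNA and against HIF2A siRNA, and the interaction. Without a filter, 41 genes were called for HIF2A siRNA, 291 between the single siRNAs and 4 for the interaction, with EGLN3 among the last at -1.18. With all 12 libraries 26 were called for HIF2A siRNA. With only the groups compared, 3 were called for HIF2A siRNA and 2609, 656 and 164 for the double knockdown against control, HIF1A siRNA and HIF2A siRNA, where EGLN1 (-0.58) was no longer called. The causes were not tested.

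With replicates or libraries left out, log2 fold changes ranged as follows. With HIF1A siRNA they were -0.58 to -0.32 for EGLN1, -0.15 to 0.11 for EGLN2, -0.81 to -0.67 for EGLN3 and -0.23 to 0.035 for HIF1AN. With HIF2A siRNA they were -0.043 to 0.11 for EGLN2, -0.16 to 0.25 for HIF1AN and -0.21 to 0.15 for VHL. Between the single siRNAs they were -0.69 to -0.52 for EGLN1 and -0.67 to -0.45 for EGLN3. In the double knockdown EGLN1 ranged from -0.56 to -0.33 against control, -0.086 to 0.16 against HIF1A siRNA and -0.66 to -0.44 against HIF2A siRNA, and EGLN2 from -0.16 to 0.10 against control. The interaction ranged from -0.35 to 0.11 for EGLN1 and from -1.37 to -1.04 for EGLN3. Genes called ranged from 66 to 219 for HIF1A siRNA, 1 to 33 for HIF2A siRNA, 90 to 351 between them, 302 to 2307, 26 to 442 and 158 to 672 for the double knockdown against control, HIF1A siRNA and HIF2A siRNA, and 0 to 3 for the interaction. HIF1AN with HIF2A siRNA was negative where replicate 2 of all groups, of HIF2A siRNA or of control siRNA was left out.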
